A study of Drosophila melanogaster with 4 samples.

Results

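Sod2, Sod3, Prx3, Gtpx, Trx2, TrxT, Gclm, Keap1 and ref(2)P are genes of antioxidant defence and of its Keap1 control arm in Drosophila melanogaster. They were taken by name from a list of antioxidant and Keap1 pathway genes, each matched to the array spots annotated with that gene alone, and all 9 were found among the 2377 genes that the platform annotation names this way. Each gene lay on 2 spots, which gave 18 spots in all. The RNA came from adult Oregon-R females aged 10 to 20 days, in pools of about 240 insects. Treated females received 2 mL of an ethyl acetate extract of Piper nigrum (black pepper) seed at 0.9 mg/mL in 99% ethanol from a Potter's tower, a device for even topical spraying, and control females received 2 mL of 99% ethanol in the same way, so that both sides were exposed to the solvent. Insects were taken 4 h later. The 2 replicates, numbered 1 and 3 in the labels, each set a treated pool against a control pool of the same number. Each was hybridised on 2 arrays with the dyes exchanged, which makes 4 arrays and n = 2 pairs of pools. Such a pair is called a replicate or a pool below, and the spread between replicates holds the variation of both sides.

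Superoxide dismutases turn superoxide into hydrogen peroxide. Peroxiredoxins and glutathione peroxidase-like enzymes then reduce peroxides with electrons from thioredoxin or glutathione. Keap1 holds the transcription factor CncC, the fly counterpart of Nrf2, in check, and oxidants or electrophiles relieve that hold so that CncC can induce antioxidant and detoxification genes. In flies this pathway is known for its part in the response to insecticides and plant toxins.

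Each value is the log2 ratio of extract to ethanol, read as channel 2 over channel 1 and averaged over the spots of a gene, with limma's standard error and 95% interval. The ratios of a replicate come in the order extract in Cy3, then extract in Cy5, and an array is called Cy3 or Cy5 by the dye of its extract. The sources used here do not say which channel the depositors put on top, or the log base. With ethanol on top every sign below turns, and with ratios by dye the effect of the extract lies in the second reading, in which the signs of the 2 reverse-label arrays are turned. The arrays of a dye swap correlated over all spots at 0.0211 in replicate 1 and 0.0632 in replicate 3 (Pearson). Correlations this weak do not settle the reading, and the arrays of a replicate barely agreed over all spots. The ratios carry no level, so neither the abundance of a transcript nor the presence of female tissue markers could be read from them. In whole insects, a change in transcript per cell cannot be told apart from a change in the share of the cells that hold it.

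None of the 9 genes passed the limma test, with 0 past an adjusted p of 0.05 and 1, Keap1, at an unadjusted p under 0.05. Over all 13607 features the adjusted test called 6 (0.0441%) and the unadjusted one 999 (7.34%). Mean log2 ratios ran from -0.25 for TrxT to 0.50 for Keap1, with 4 genes above 0 and 5 below. The median was -0.05 over the 9 genes, against 0.01 over all named genes, and the median size of the mean without its sign was 0.14, against 0.10. The 95% interval lay within a 2-fold change in either direction for 9 of 9 genes, as it did for 2351 of the 2377 named genes.

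**Figure D1:**
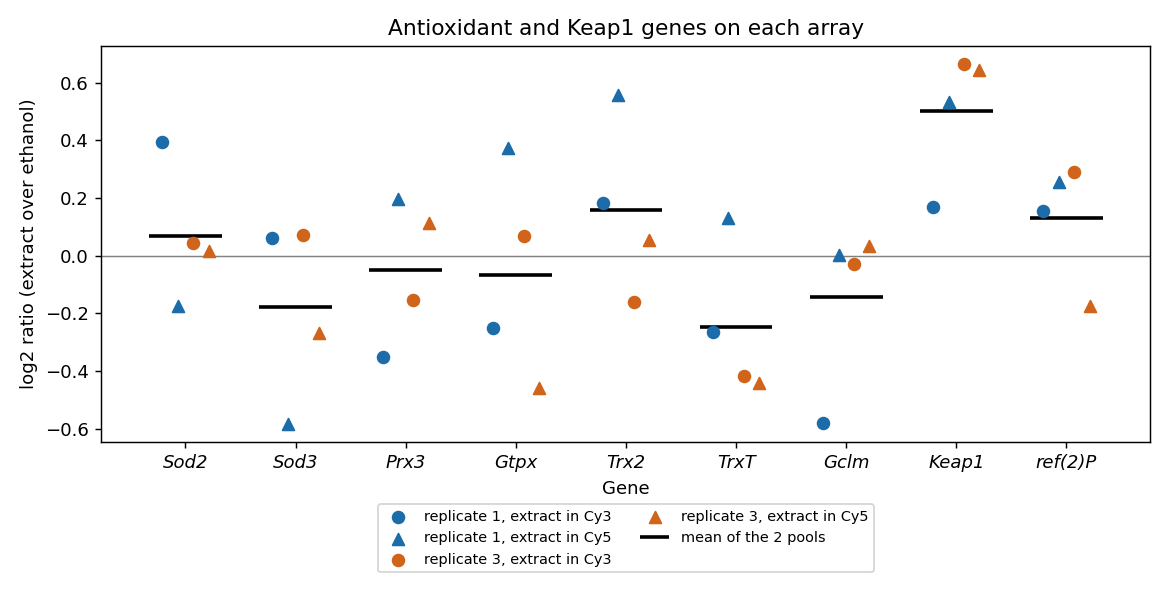
The vertical axis gives the log2 ratio of extract over ethanol and the horizontal axis the 9 genes, ordered by role. Circles mark arrays with the extract in Cy3 and triangles arrays with the extract in Cy5, colours separate replicates 1 and 3, and bars give the mean of the 2 pools. Keap1 lies above 0 on 4 of 4 arrays, and each other gene has arrays on both sides of 0.

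Keap1 is the substrate adaptor that hands CncC to a Cul3 ubiquitin ligase. It had log2 ratios of 0.17 and 0.53 in replicate 1 and of 0.66 and 0.64 in replicate 3. All 4 arrays lay above 0, and the lowest was the Cy3 array of replicate 1. The mean was 0.50 ± 0.16, a 1.42-fold ratio, with a 95% interval of 0.15 to 0.86, and it missed the test (limma, adjusted p = 0.525, and 0.0106 before adjustment). By this mean Keap1 ranked 27 of 2377 named genes from the top, a place that holds for the ratios as deposited. It ranked 1750 with the reverse-label arrays turned, at -0.09, and would stand near the bottom with ethanol on top. One sign on all 4 arrays was seen in 1 of the 9 genes and in 2144 of 13607 features (15.8%), so that count is near the background.

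The 2 spots of Keap1 read 0.26 and 0.08 on the Cy3 array of replicate 1, 0.44 and 0.63 on the Cy5 array of replicate 1, 0.59 and 0.74 on the Cy3 array of replicate 3, and 0.67 and 0.62 on the Cy5 array of replicate 3. All 8 spot values lay above 0. One sign on all 8 was held by 102 of the 2089 genes with 2 spots (4.88%), 57 above 0 and 45 below, in the ratios as deposited. Of the 9 genes described here, only Keap1 held it. The 9 genes were chosen with earlier results of these data known. The rank of Keap1, its unadjusted p and this share therefore cannot be weighed as those of a gene chosen beforehand. The 2 spots share the same RNA and arrays, so they add no replicate. The spots of Keap1 differed by at most 0.19 on any array, whereas its arrays spanned 0.50, so its arrays differed by more than its spots did.

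ref(2)P is the fly counterpart of the mammalian autophagy receptor p62, which in mammals binds KEAP1 and draws it into autophagosomes. Its ratios were 0.15 and 0.26 in replicate 1 and 0.29 and -0.17 in replicate 3. The Cy5 array of replicate 3 was the one below 0. Its mean was 0.13 ± 0.15, with a 95% interval of -0.21 to 0.47 (limma, adjusted p = 0.881). Keap1 lay above ref(2)P on 4 of 4 arrays, by 0.01, 0.28, 0.37 and 0.82 on the Cy3 and Cy5 arrays of replicate 1 and the Cy3 and Cy5 arrays of replicate 3. The smallest of these gaps is under 0.15, the median difference between the spots of the 9 genes on an array. With the reverse-label arrays turned, Keap1 stood lower, at -0.09, than ref(2)P, at 0.09.

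Sod2 is the manganese superoxide dismutase of mitochondria. Its transcript stood at 0.39 and -0.17 in replicate 1 and at 0.04 and 0.01 in replicate 3. The arrays of replicate 1 fell on opposite sides of 0 and those of replicate 3 lay near 0, and the mean was 0.07 ± 0.15 (limma, adjusted p = 0.951). Its spots agreed most closely of the 9 genes, with a median difference of 0.04 within an array, while the arrays of replicate 1 lay 0.57 apart.

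Sod3 belongs to the copper-zinc superoxide dismutases and is known as the extracellular form. Its ratios were 0.06 and -0.58 in replicate 1 and 0.07 and -0.27 in replicate 3. Both Cy3 arrays lay just above 0 and both Cy5 arrays below. The mean was -0.18 ± 0.15 (limma, adjusted p = 0.819).

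Prx3 is the peroxiredoxin of mitochondria, where it works beside Sod2. It showed the opposite order, with -0.35 and 0.20 in replicate 1 and -0.15 and 0.11 in replicate 3. Both Cy3 arrays lay below 0 and both Cy5 arrays above, which left a mean of -0.05 ± 0.15 (limma, adjusted p = 0.967).

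Gtpx is related to mammalian phospholipid hydroperoxide glutathione peroxidase and in flies is known to draw on thioredoxin. Gtpx had ratios of -0.25 and 0.37 in replicate 1 and of 0.07 and -0.46 in replicate 3. The dye swap went one way in replicate 1 and the other way in replicate 3. Its arrays spanned 0.83, the widest range of the 9 genes, around a mean of -0.07 ± 0.15 (limma, adjusted p = 0.954), while its spots differed by at most 0.16 on any array.

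Trx2 encodes the general cytosolic thioredoxin, the electron donor of peroxiredoxins. Trx2 had ratios of 0.18 and 0.56 in replicate 1 and of -0.16 and 0.06 in replicate 3. Replicate 1 lay above 0 on both arrays, at a pool mean of 0.37, and replicate 3 lay near 0, at -0.05. The mean was 0.16 ± 0.16 (limma, adjusted p = 0.863).

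TrxT is a thioredoxin known from the testis, an organ these females lack. TrxT had ratios of -0.26 and 0.13 in replicate 1 and of -0.42 and -0.44 in replicate 3, and 3 of the 4 arrays lay below 0. The mean of -0.25 ± 0.16 was the lowest of the 9 as deposited (limma, adjusted p = 0.776). Turned, it stood at -0.09 and Prx3 was the lowest, at -0.20. The spots of TrxT disagreed most, by a median of 0.48 and by up to 0.87 on the Cy3 array of replicate 3, where they read 0.02 and -0.85. Over all genes with 2 spots the median difference was 0.24 and 10% of differences exceeded 0.73. Trx2 lay above TrxT on 4 of 4 arrays as deposited, by 0.44, 0.43, 0.26 and 0.50, against the median difference of 0.48 between the spots of TrxT. With the reverse-label arrays turned, Trx2 stood lower, at -0.15, than TrxT, at -0.09. Of the other pairs compared, Keap1 lay above ref(2)P on 4 of 4 arrays, Sod2 above Sod3 on 3 and Prx3 above Gtpx on 1. Turned, Sod2 stood lower, at 0.15, than Sod3, at 0.25, and Prx3 lower, at -0.20, than Gtpx, at -0.02. Keap1 and TrxT held the highest and lowest means of the 9 as deposited, and no share over other gene pairs was computed.

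Gclm encodes the modifier subunit of glutamate-cysteine ligase, which starts glutathione synthesis, and the mammalian gene is a standard Nrf2 target. Gclm had ratios of -0.58 and 0.00 in replicate 1 and of -0.03 and 0.03 in replicate 3. The other 3 arrays lay between -0.03 and 0.03, and the Cy3 array of replicate 1 was far below them. This left a mean of -0.14 ± 0.16 (limma, adjusted p = 0.875). Both spots were low on that array, at -0.64 and -0.52, and without it the mean was 0.003.

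**Figure D2:**
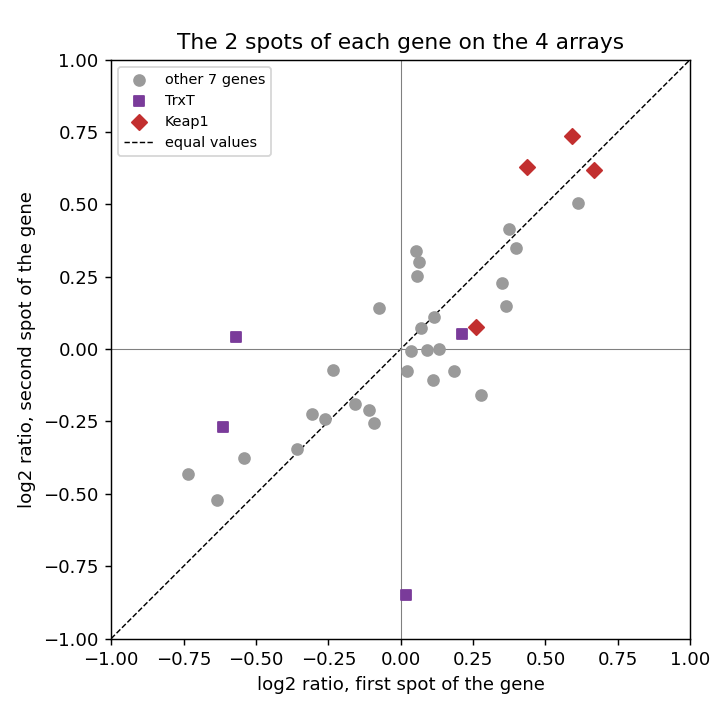
Each point is 1 gene on 1 array, with the log2 ratio of its first spot on the horizontal axis and of its second spot on the vertical axis, and the dashed line marks equal values. The 4 points of Keap1 lie in the upper right, all with both spots above 0. The spots of TrxT have the largest median difference, 0.48, against 0.15 over the 9 genes, though not each of its points lies far from the line.

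Sod3, Prx3 and Gclm had one sign on both Cy3 arrays and the other sign on both Cy5 arrays, a pattern held by 1638 of 13607 features (12%). For Gclm this rests on values between -0.03 and 0.03 on 3 arrays. With the reverse-label arrays turned, Sod3 stood at 0.25 ± 0.15 (limma, adjusted p = 0.962), Prx3 at -0.20 ± 0.15 (limma, adjusted p = 0.962) and Gclm at -0.16 ± 0.15 (limma, adjusted p = 0.966). In that reading Keap1 lay at -0.09 ± 0.15, with a 95% interval of -0.43 to 0.26 (limma, adjusted p = 0.976), and 3 of the 9 genes stood above 0 and 6 below. None of the 9 passed the test or had an unadjusted p under 0.05, beside 0 (0%) and 647 (4.75%) of all features. The 95% intervals lay within a 2-fold change for 9 of 9 genes in this reading too. A dye effect and an effect of the extract cannot be told apart for these genes without the numerator of the deposited ratio.

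**Figure D3:**
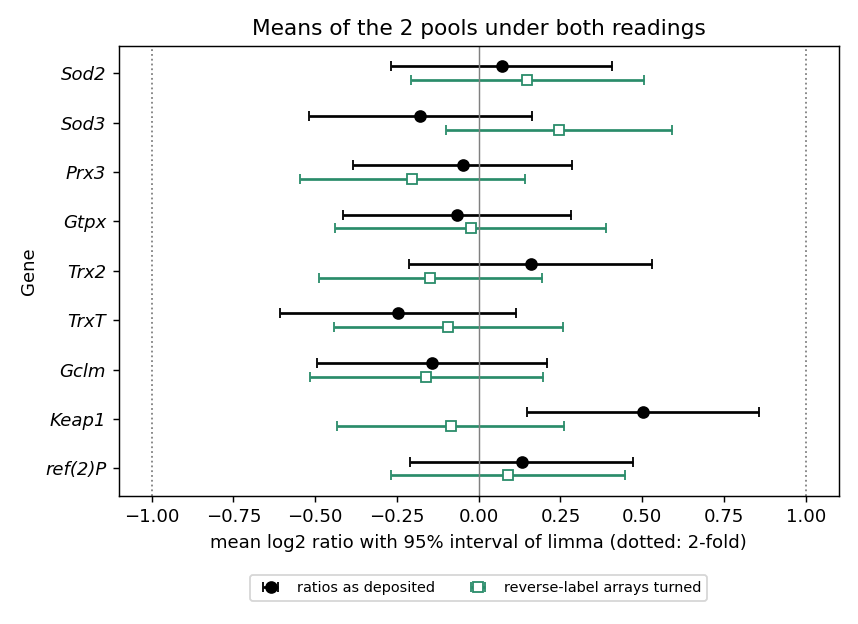
The horizontal axis gives the mean log2 ratio of the 2 pools with its 95% interval from limma, and genes run down the page. Filled circles show the ratios as deposited and open squares the ratios with the reverse-label arrays turned, and dotted lines mark a 2-fold change. Keap1, at 0.50 as deposited, is the gene whose interval does not hold 0, and at -0.09 in the other reading its interval holds 0.

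The gene lists for the wider pathway held 100 candidate genes, of which 20 were measured, the 9 above and 11 others. Coverage was uneven: 3 of 6 genes of the superoxide dismutase and catalase list, 2 of 8 peroxiredoxin and glutathione peroxidase-like genes, 3 of 10 of the thioredoxin system, 1 of 9 of glutathione synthesis and NADPH supply, and 6 of 12 CncC/Keap1 regulators and partners. Of the other lists 3 of 35 glutathione S-transferases, 1 of 10 metal-binding and iron genes and 1 of 10 CncC-linked detoxification genes were measured. The gene for CncC itself was not analysed here. Of the 20 measured genes, 12 stood above 0 as deposited and 8 with the reverse-label arrays turned, beside 6843 (50.3%) and 6756 (49.7%) of the 13607 features. The test called 1 of the 20 as deposited, the cytochrome P450 gene Cyp12d1-p at 1.33 ± 0.16 (limma, adjusted p = 0.0315). Cyp12d1-p had the highest mean of the 2377 named genes and was the 1 named gene called. The gene lists were chosen with earlier results of these data known. The 1 of 20 therefore cannot be weighed against the 0.0441% called over all features. After the Cy3 array of replicate 3 was left out, Cyp12d1-p stood at 1.19 and did not pass (limma, adjusted p = 0.629). In that fit 0 of all features passed. With any other 1 array left out Cyp12d1-p passed (limma, adjusted p from 0.0265 to 0.0433). Turning the reverse-label arrays ended its call, at 0.06 for Cyp12d1-p (limma, adjusted p = 0.983).

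Among CncC/Keap1 regulators and partners, 5 of 6 measured genes stood above 0 as deposited and 1, ref(2)P, with the reverse-label arrays turned, and 0 passed the adjusted limma test in either reading. Keap1, Atg8a and Sesn, 3 of the 6, had an unadjusted limma p under 0.05, beside 7.34% of all features. The list was drawn up with earlier results for some of its genes known, so the 3 of 6 cannot be weighed against that share. Atg8a, the ubiquitin-like protein of autophagosomes that ref(2)P binds, had ratios of 0.62 and 0.65 in replicate 1 and of 0.14 and 0.46 in replicate 3, with a mean of 0.47 ± 0.16 (limma, adjusted p = 0.577). Sesn, the stress-inducible sestrin, had ratios of 0.29 and 0.64 in replicate 1 and of 0.42 and 0.32 in replicate 3, with a mean of 0.42 ± 0.15 (limma, adjusted p = 0.577). Both lay above 0 on 4 of 4 arrays, as Keap1 did, and both left that side with the reverse-label arrays turned, Atg8a at -0.09 and Sesn at -0.06. Cul3, the scaffold of the ligase that Keap1 serves, stood at 0.07 ± 0.15 and dj-1beta, a fly counterpart of the Parkinson gene DJ-1, at -0.14 ± 0.15, and each had arrays on both sides of 0. These last names fall outside the rule for naming and are given so that the list is complete.

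**Figure D4:**
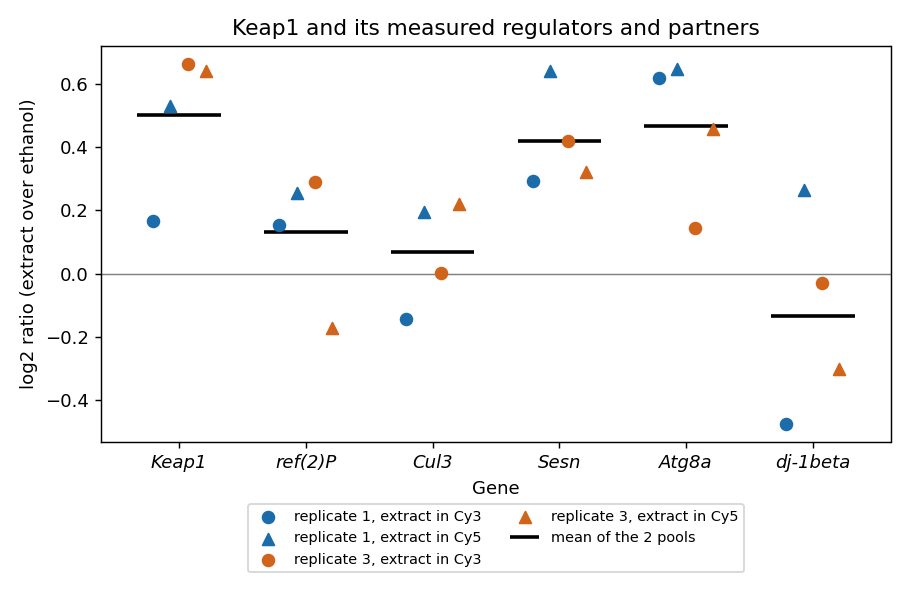
The vertical axis gives the log2 ratio of extract over ethanol for the 6 measured CncC/Keap1 regulators and partners, with circles for arrays with the extract in Cy3, triangles for Cy5, colours for the 2 replicates and bars for the mean of the pools. Keap1, Sesn and Atg8a lie above 0 on 4 of 4 arrays, at means of 0.50, 0.42 and 0.47, and none passed the test.

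Of the antioxidant enzymes' partners, Ccs, the copper chaperone that loads superoxide dismutase, had ratios of -0.10 and 0.26 in replicate 1 and of 0.32 and 0.35 in replicate 3, with a mean of 0.21 ± 0.15 (limma, adjusted p = 0.793). It lay below 0 on the Cy3 array of replicate 1. The other 7 measured genes, Cul3 and dj-1beta among them, had means under 0.2 in size and did not pass.

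The named genes nearest to Keap1 by Euclidean distance over the 4 arrays were Strn-Mlck, a myosin light chain kinase gene of muscle, at a distance of 0.12 and a mean log2 ratio of 0.44, and puc, the JNK phosphatase gene, at a distance of 0.17 and a mean of 0.46. CG4239, CG4213 and Ttc19 followed at distances of 0.26, 0.26 and 0.28. None of these 5 passed the test. Of the other 8 genes described here the closest to Keap1 was ref(2)P, at a distance of 0.94, which ranked 449 of 2376, and the farthest was TrxT, at 1.64 and rank 2218.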

How the data were processed

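Expression was measured on 2-colour spotted arrays, and the authors deposited 1 log2 ratio per spot for 16896 spots on each of 4 arrays. Log base 2 was assumed. The scanner, the background correction, the normalization and any spot filter are not given in the sources used here. The median of every array lay within 0.00218 of 0 and was subtracted. Gene symbols came from the platform annotation (5666 spots with 1 gene, 152 with several, 11078 with none) and were checked by gene number against RefSeq genes, with 5666 matched. Spots of a gene were averaged per array, unnamed or multi-gene spots stayed single (13607 features), and the 2 arrays of a pool were averaged. A two-sided test of each pool mean against 0 used limma 3.58.1 (lmFit, eBayes; R 4.3.3) with Benjamini-Hochberg adjustment over all features, at 0.05. The fit had 1 residual and 8.19 prior degrees of freedom, and its code was tested on simulated data. The p-values therefore rest mainly on the variance shared over all features: the standard errors of the 9 genes ran from 0.149 to 0.164, while the SDs between their 2 pools ran from 0.0405 to 0.298. The number of pools, 2, limits the precision.

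The members and gene lists were chosen with earlier results of these data known. All 9 members were named, other list genes at a mean of at least 0.2 in size, and the 5 genes nearest to Keap1. Alternatives were the turned reverse-label arrays, equal spread, no centring, the replicate block, the median over spots, named genes only, spots singly, and leaving out each array or pool.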

Additional observations from a re-analysis of the deposited data

Results flagged for a closer look

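Gclm on the Cy3 array of replicate 1 stood at -0.58, far from the other 3 arrays, which lay between -0.03 and 0.03. It was the 1 item with such a gap among 14 compared, and chance gives about 1 in 20, or 0.7 of 14. Both spots of the gene were low on that array.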

How the results depend on the processing

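The count of these 9 genes past the test was 0 under every alternative that gives a test. With spots tested singly, that count took only the spot of each gene whose mean was closer to 0, while the count over all features took every spot. Over all features the count was 6, and it became 0 with the reverse-label arrays turned, 42 with equal spread, 10 with named genes only, 12 with the replicate block, 19 with spots tested singly and 0 to 11 without 1 array. The replicate block had an estimated within-pool correlation of -0.244 and so gave the 4 arrays at least the weight of independent samples. Keap1 kept its sign without any 1 array or pool (0.35 to 0.65), and its adjusted p ranged from 0.208 with named genes only to 0.976 with the reverse-label arrays turned, where its mean was -0.0858. Turned, Sod3 stood at 0.245, Trx2 at -0.148, Ccs at -0.0967, Sesn at -0.0625 and Atg8a at -0.0854. Of the 9 genes, 5 changed sign without 1 array or pool: Sod2 (-0.0721 to 0.212), Prx3 (-0.186 to 0.0875), Gtpx (-0.223 to 0.0892), Trx2 (-0.0519 to 0.370) and Gclm (-0.288 to 0.00275). The median over the 9 genes, -0.05, ranged from -0.0207 to 0.0875 in these settings. With the spot whose mean was closer to 0 standing for the gene, Prx3 stood at 0.00751 and Ccs at -0.0163. The causes were not tested. Signal over background was not used here, so which of these transcripts were detected is not known.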
